A study of Mus musculus with 36 samples.

Results

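The genes described are the conjugation enzymes of mouse liver, taken by symbol as the numbered glutathione S-transferases (Gst classes alpha, mu, pi, theta, kappa and omega), the UDP-glucuronosyltransferases of the Ugt1, Ugt2 and Ugt3 families, and the cytosolic sulfotransferases (Sult). Of 24421 genes in the counts files, 59 met this rule, with 20 Gst, 20 Ugt and 19 Sult genes. The rule used names only and no measured value. Liver RNA was sequenced from 36 male C57BL/6J mice, bought at 7 weeks of age, 1 library per mouse. All mice had first received 12 weeks of CDAHFD (defined in L-amino acids, without choline and high in fat), which gives fatty and fibrotic liver, and no library came from a mouse without it. In the HFD experiment, mice then had 2 weeks of high-fat diet with a weekly injection of 4.3 mg/kg Fc, an antibody fragment used as the control protein (10 mice), or 5 mg/kg Fc(mML1)B3, the same fragment carrying a grafted peptide that binds and activates the Met receptor (10 mice). In the standard diet experiment, mice had 10 days of standard diet with injections at days 1, 4 and 7 of 4.3 mg/kg Fc (9 mice) or 5 mg/kg Fc(mML1)B3 (7 mice). The question for these genes was how the Met agonist changed the enzymes under each diet. Diet went together with experiment, injection schedule and treatment length, so an effect of diet cannot be told apart from these.

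Conjugation is the step of detoxification that joins a polar group to a foreign or endogenous compound so that it can leave the cell. Gst enzymes use glutathione to trap reactive electrophiles, Ugt enzymes of the endoplasmic reticulum attach a sugar, usually glucuronic acid from UDP-glucuronic acid, to bilirubin, steroids, bile acids and drugs, and Sult enzymes of the cytosol transfer sulfate from PAPS to phenols, catecholamines, steroids and bile acids. Hepatocytes hold most of this capacity, and many of the genes are known to follow nuclear receptors, NRF2, growth hormone and the circadian clock.

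Library depth was 14949035 to 28466853 reads counted in genes. The hepatocyte markers Alb, Cps1 and Hnf4a and their list were high in all groups, with a summed level over 7 of 7 markers of 75920 to 134800 CPM (read counts scaled to library size by TMM) in the Fc HFD group and 70590 to 144300 CPM in the treated HFD mice. Fc mice 7 and 8 of the HFD experiment stood apart from the rest of their group. S100a8, a neutrophil gene, was at 22.3 and 20.2 CPM in them against 1.6 to 5.95 CPM in the other Fc HFD mice. Calls of single members under the HFD are therefore given with and without these 2 mice, while family counts include them. In bulk liver, fewer cells of a type and less RNA per cell cannot be told apart.

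Clock genes moved with the groups over which these enzymes were compared. They were listed because earlier results of these data showed them to move with the treated groups. In the edgeR fit described with the members, 5 of 12 rose with Fc(mML1)B3 under the HFD and 7 fell (adjusted p below 0.05). Of all genes, 14.8% were called there (8.14% higher and 6.68% lower). Arntl, the core activator, had 0.621 to 2.12 CPM with Fc and 6.6 to 28.6 CPM with Fc(mML1)B3, and Dbp, which binds the D-box, 73.1 to 133.4 CPM and 3.14 to 24.9 CPM, both without overlap. With standard diet 6 of 13 rose and 4 fell, where 16.1% of all genes were called. Arntl was at 2.29 to 6.42 CPM with Fc and 0.92 to 3.38 CPM with Fc(mML1)B3, and Dbp at 36 to 93 CPM and 55.3 to 113 CPM. The part of clock genes in the member results was not tested.

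Members differed widely in level. Per kilobase of exon not shared with another gene, the highest means over all libraries were those of Gstp1 (1318 CPM per kb), Gstm1 (1252) and Gsta3 (1155), the leading pi, mu and alpha class genes, and these 3 stood above Ugt2b5 (449.9) and Ugt2b36 (395.8). Sult2a8, a bile acid sulfotransferase (284.5), Ugt1a1, the bilirubin glucuronosyltransferase (228.7), the theta class gene Gstt1 (223.8), Ugt3a2 (197.6), the phenol sulfotransferase Sult1a1 (176.3) and the mitochondrial and peroxisomal Gstk1 (116.3) led their families. Over its full exon length Ugt1a1 was at 64.7 CPM per kb, since reads in its shared exons were not counted. Sult5a1, the highest among the Sult3 to Sult6 genes, had 7.57 CPM per kb. Gst genes held 65.6% of the members' summed level per kb, Ugt genes 26.9% and Sult genes 7.49%. At the other end, 5 members had no read in any library (Sult1c1, Ugt2a2, Sult2a3, Sult2a4 and Sult2a5), and another 10 stayed below the filter for low counts in every fit (Ugt1a2, Sult3a1, Gstt4, Sult4a1, Sult6b1, Gsto2, Ugt2a1, Sult2a1, Sult2a2 and Sult2a6).

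**Figure D1:**
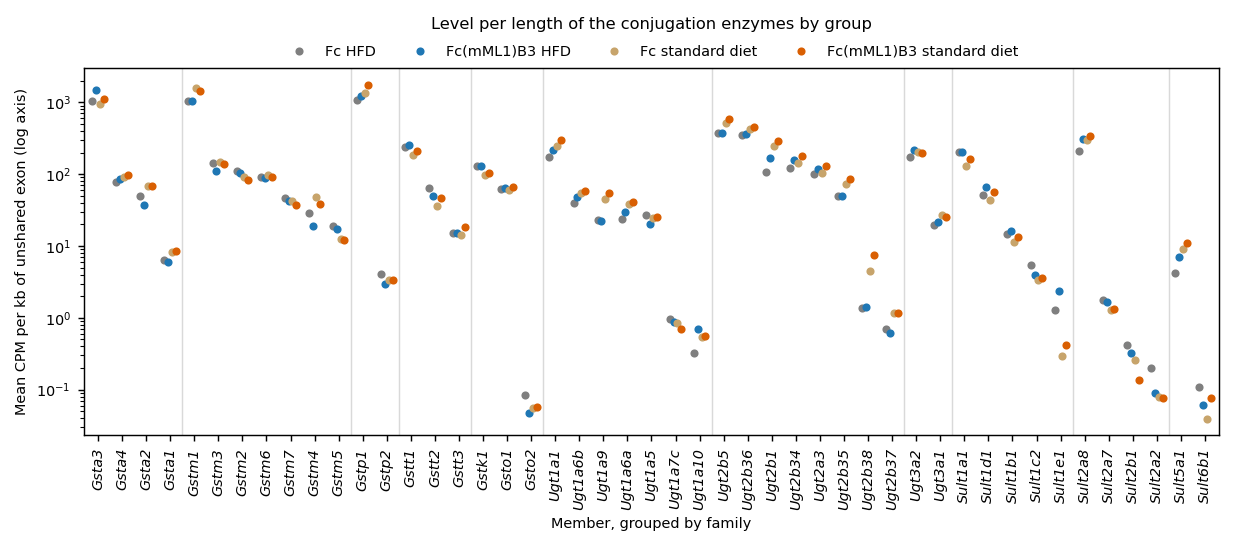
Mean CPM per kilobase of unshared exon (log axis) of each member above 0.05 CPM per kb, by family, with 1 point for each of the 4 groups and no error shown. Gstp1, Gstm1 and Gsta3 lie near or above 1000 CPM per kb in most groups, and low members such as Sult2b1 and Gsto2 lie below 1.

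Some members share sequence, which limits what their counts mean. Of the 59 members, 21 had at least 10% of their 100-base transcript windows in another gene. This is not the share of reads lost, since a read there can be placed by its mate. The authors left out reads with several alignments or, where genes share exons at 1 place in the genome, those overlapping several genes. The Ugt1a genes are of the second kind and share their last exons, so only reads from each gene's own first exon region could be counted. Gsta1 (80.6% of windows), Gstp2 (46.9%), Gsta2 (28.4%), Gstp1 (25.1%), Ugt2b5 (24.7%), Ugt2b38 (24.2%), Gstm3 (13.8%) and Gstt3 (10.8%) are uncertain too.

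Promoter stretches of 250 bases before the start are shown for some members that kept their call under the HFD whichever mouse was left out. These are Gsta3 and Ugt2b1, which rose, and Gstm4, which fell. Ugt2b34 rose and kept its call too but is not shown, and its promoter held none of the motifs given here. They are RefSeq sequences on GRCm38.p6, written in the direction of the gene. Capitals mark a match to the antioxidant response element core TGACNNNGC in Gsta3 (chr1:21240335-21240584, plus strand) and to the D-box TTATGTAA, read on the other strand, in Ugt2b1 (chr5:86926504-86926753, minus strand). The Gstm4 stretch (chr3:108044860-108045109, minus strand) held none of the motifs given here.
Gsta3: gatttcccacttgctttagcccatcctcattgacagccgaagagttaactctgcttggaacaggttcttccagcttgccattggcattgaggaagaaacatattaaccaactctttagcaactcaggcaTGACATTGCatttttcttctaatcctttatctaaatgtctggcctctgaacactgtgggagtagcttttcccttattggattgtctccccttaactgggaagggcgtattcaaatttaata
Ugt2b1: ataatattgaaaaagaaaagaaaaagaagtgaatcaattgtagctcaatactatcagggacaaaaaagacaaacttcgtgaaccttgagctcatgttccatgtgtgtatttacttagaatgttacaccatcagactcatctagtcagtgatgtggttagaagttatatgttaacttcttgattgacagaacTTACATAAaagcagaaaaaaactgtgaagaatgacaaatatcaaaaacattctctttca
Gstm4: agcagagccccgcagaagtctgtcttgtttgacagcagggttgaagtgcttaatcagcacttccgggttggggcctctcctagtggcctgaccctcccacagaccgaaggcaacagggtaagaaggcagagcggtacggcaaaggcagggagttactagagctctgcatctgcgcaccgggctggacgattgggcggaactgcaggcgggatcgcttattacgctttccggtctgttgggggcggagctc

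Promoters were found for 51 members, 61 in all, and were searched on both strands from 250 bases before to 50 after the start. The antioxidant response element core was in 3 of them (Gsta3, Gstm5 and Gstm7), 4.92% against 12.4% of 32851 promoters. The D-box, the letters that the clock output factors DBP, TEF and HLF bind, was in 1 (Ugt2b1), 1.64% against 0.938%. The dioxin response element core GCGTG was in 11 (18.0% against 32.4%) and the RORE core AGGTCA in 12 (19.7% against 16.3%). The E-box CACGTG was in 0 of 61, against 7.15% of all promoters. A match is a description of letters and not of binding.

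Under the HFD, Fc(mML1)B3 went with higher Ugt2b1, Gsta3, Ugt2b34, Sult1d1 and Ugt3a2 and with lower Gstm4 and Gstt2. The groups overlapped for every member. With the quasi-likelihood test of edgeR and an adjusted p below 0.05, 7 of the 42 members tested were called (5 higher, 2 lower), 16.7%, against 14.8% of all 13299 genes (8.14% higher and 6.68% lower), so the share was near the background. Without treated mouse 5, 1402 of all genes were called higher and 1446 lower, against 1083 and 889 with it, and 4 members were lower, with Gsta2 and Sult1c2 added. A limit that also asked for a fold (adjusted p below 0.1 and fold above 2) was met by 0 members and by 1.34% of all genes (0.662% higher and 0.677% lower). At an unadjusted p below 0.05 stood 13 members, against 29.8% of all genes. Without Fc mice 7 and 8, 3 members were called higher (Gsta3, Ugt2b1 and Ugt2b34) and 3 lower (Gstm4, Gstt2 and Ugt1a5), in a fit that called 1002 of all genes higher and 841 lower, against 1083 and 889 with these mice.

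Ugt2b1, a steroid and drug glucuronosyltransferase (mm10, chr5:86916639-86926503, minus strand), had 153 to 362 CPM (median 276) in the Fc group and 270 to 553 CPM (median 450) in the Fc(mML1)B3 group. Among the 10 treated mice, 9 lay above the Fc median. The log2 fold change was 0.66 ± 0.13 (SE), a ratio of mean CPM of 1.57 (adjusted p = 0.0014), and it was 0.57 without Fc mice 7 and 8 (adjusted p = 0.00239).
Gsta3, the most abundant alpha class gene (chr1:21240585-21265575, plus strand), had 992 to 2278 CPM (median 1652) in the Fc group and 2115 to 2896 CPM (median 2298) in the treated group. All 10 treated mice were above the Fc median, and the Fc mice varied more (CV 26.2% against 9.57%). The log2 fold change was 0.50 ± 0.13 (SE, adjusted p = 0.0123) and 0.37 without Fc mice 7 and 8 (adjusted p = 0.0195).
Ugt2b34 gave 254 to 418 CPM (median 371) in the Fc group and 323 to 551 CPM (median 490) in the treated group. Its log2 fold change was 0.38 ± 0.09 (SE, adjusted p = 0.00734) and 0.32 without Fc mice 7 and 8 (adjusted p = 0.0165), and treated mouse 2 was the lowest of its group.

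Sult1d1, which sulfates catecholamines and other amines, ranged from 103 to 173 CPM (median 114) with Fc and from 80.3 to 187 CPM (median 166) with Fc(mML1)B3. Its log2 fold change was 0.38 ± 0.12 (SE, adjusted p = 0.0357). The call was lost without Fc mice 7 and 8 (0.36, adjusted p = 0.0774) and in 11 of 20 fits that left out 1 mouse.
Ugt3a2, of a small family that uses sugars other than glucuronic acid, ranged from 299 to 497 CPM (median 384) with Fc and from 326 to 572 CPM (median 477) with Fc(mML1)B3. Its log2 fold change was 0.31 ± 0.10 (SE, adjusted p = 0.0404), and the call was lost without Fc mice 7 and 8 (0.26, adjusted p = 0.111) and in 12 of 20 fits without 1 mouse.

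Gstm4, a mu class gene (chr3:108040408-108044859, minus strand), moved the other way. It had 34.6 to 56.7 CPM (median 50.7) in the Fc group and 25.1 to 38.1 CPM (median 32.1) in the treated group, and all 10 treated mice lay below the Fc median. Fc mice 7 and 8 were the only Fc mice within the range of the treated group. The log2 fold change was -0.59 ± 0.10 (SE, adjusted p = 0.000219) and -0.68 without those 2 mice (adjusted p = 5.91e-06).
Gstt2, a theta class gene (chr10:75831845-75834881, minus strand), had 69.6 to 113 CPM (median 88.1) with Fc and 51.5 to 88.1 CPM (median 64.2) with Fc(mML1)B3. All 10 treated mice were below the Fc median, though 4 of them lay within the Fc range. Its log2 fold change was -0.35 ± 0.11 (SE, adjusted p = 0.028), with -0.35 and an adjusted p of 0.0457 without Fc mice 7 and 8, and it was not called in 5 of 20 fits without 1 mouse (without Fc mouse 2 or treated mice 3, 6, 7 or 9, highest adjusted p = 0.0587).

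By family under the HFD, 6 of 7 mu class genes tested had a negative log2 fold change, with Gstm4 called, and 7 of 8 Ugt2 genes a positive one, with Ugt2b1 and Ugt2b34 called. Of 6 Ugt1 genes 0 were called by edgeR, with values from -0.39 to 0.34, while 3 had an unadjusted p below 0.05. Ugt1a1 was at 0.33 ± 0.13 (SE, adjusted p = 0.0845). Over the 42 members, the median log2 fold change was 0.04 against -0.01 for all genes, and 59.5% were positive against 48.3%.

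The names of the deposited libraries carry an S number each, and what a run of these numbers stands for is not given in the sources used here. Libraries of the HFD experiment fell into different runs, all Fc libraries in 1 run and the treated mice 1 to 4 and 5 to 10 in others, so this number and the protein cannot be told apart. With only treated mice 1 to 4, the log2 fold changes of Ugt2b1, Gsta3, Ugt2b34 and Gstm4 were 0.67, 0.52, 0.35 and -0.46 (adjusted p = 0.0216, 0.102, 0.112 and 0.047). With only treated mice 5 to 10, they were 0.66, 0.49, 0.41 and -0.67 (adjusted p = 0.0107, 0.0595, 0.00975 and 0.000995). Sult1d1 was called with treated mice 5 to 10 alone (0.44, adjusted p = 0.013) and not with mice 1 to 4 alone (0.30, adjusted p = 0.255). Ugt3a2 (0.33 and 0.31, adjusted p = 0.109 and 0.126) and Gstt2 (-0.36 and -0.33, adjusted p = 0.0825 and 0.106) were called with neither set of treated mice, mice 1 to 4 first.

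Under the standard diet, the Met agonist went with higher Ugt2a3, Sult1d1, Gstt2, Ugt1a1, Ugt2b34, Gsta3, Gstt3, Sult1a1 and Ugt2b1 and with lower Gstm4 and Gstm7. The changes were small, with 0.38 or less on the log2 scale. In all, 11 of 42 members were called (9 higher, 2 lower), 26.2%, against 16.1% of all 13570 genes (8.56% higher and 7.55% lower). When the same contrast was taken from a fit of all 36 libraries, which called 785 genes, Ugt2a3 and Gstt2 were called and the other 9 members were not, with adjusted p from 0.0556 for Gstm4 to 0.35 for Ugt2b1. A limit that also asked for a fold (adjusted p below 0.05 and fold above 1.5) was met by 0 members and by 2.36% of all genes (1.05% higher and 1.31% lower), and 18 members had an unadjusted p below 0.05, against 29.3% of all genes. The median log2 fold change of the members was 0.09 against -0.01 for all genes, and 71.4% were positive against 47.5%.

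Ugt2a3, a glucuronosyltransferase of liver and gut, had the smallest p. It gave 202 to 254 CPM (median 225) in the Fc group and 243 to 311 CPM (median 271) in the treated group, with all 7 treated mice above the Fc median. The log2 fold change was 0.30 ± 0.05 (SE, adjusted p = 0.000442).
Sult1d1 had 88 to 122 CPM (median 105) with Fc and 117 to 151 CPM (median 127) with Fc(mML1)B3, a log2 fold change of 0.34 ± 0.07 (SE, adjusted p = 0.00198). All 7 treated mice lay above the Fc median.
Ugt1a1 had 201 to 279 CPM (median 220) with Fc and 234 to 296 CPM (median 268) with Fc(mML1)B3. Its log2 fold change was 0.25 ± 0.06 (SE, adjusted p = 0.0113), again with all 7 treated mice above the Fc median.

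Ugt2b34, Gsta3 and Ugt2b1 rose under both diets. Under the standard diet their log2 fold changes were 0.28 ± 0.08, 0.25 ± 0.07 and 0.22 ± 0.07 (SE, adjusted p = 0.0181, 0.0239 and 0.0436). Ugt2b1 ranged from 482 to 712 CPM with Fc and from 623 to 819 CPM with Fc(mML1)B3, and Gsta3 from 1327 to 1767 CPM and from 1480 to 2104 CPM. The Ugt2b1 call was lost in 11 of 16 fits without 1 mouse (adjusted p up to 0.0999), and the Gsta3 call without treated mouse 4, 5 or 6 (up to 0.0636). The difference between the diets in these effects did not pass the test, with -0.43 ± 0.17 for Ugt2b1 (SE, adjusted p = 0.103), -0.24 ± 0.16 for Gsta3 (adjusted p = 0.431) and -0.09 ± 0.13 for Ugt2b34 (adjusted p = 0.767).

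Gstt3, the neighbour of Gstt1 in the theta cluster, and Sult1a1 rose too. Gstt3 had a log2 fold change of 0.36 ± 0.11 (SE, adjusted p = 0.0294), from 20.6 to 35.9 CPM with Fc to 22.8 to 39.6 CPM with Fc(mML1)B3. It was not called without Fc mouse 6 or 9 or treated mouse 4, 5, 6 or 7 (adjusted p up to 0.0714). Sult1a1 had 0.32 ± 0.10 (SE, adjusted p = 0.0402), with treated mouse 1 at 138 CPM below all 9 Fc mice (148 to 210 CPM). It stayed called in 4 of 16 fits without 1 mouse, those without Fc mouse 3, 5 or 6 or treated mouse 1.

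Gstm4 fell under the standard diet too, from 68.9 to 99.2 CPM (median 78.9) with Fc to 51.8 to 76.2 CPM (median 66.8) with Fc(mML1)B3. The log2 fold change was -0.31 ± 0.08 (SE, adjusted p = 0.0105), with all 7 treated mice below the Fc median. Gstm7, of the same mu class cluster, had 49 to 65.7 CPM with Fc and 42.8 to 52.5 CPM with Fc(mML1)B3, a log2 fold change of -0.22 ± 0.06 (SE, adjusted p = 0.014). All 7 mu class genes tested had negative log2 fold changes, from -0.31 to -0.04, and 2 were called. The diets' difference for Gstm4 was 0.29 ± 0.13 (SE, adjusted p = 0.189), and it passed without Fc HFD mice 7 and 8 (0.37, adjusted p = 0.0285).

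Within the 1 run of S numbers that held both proteins under the standard diet (Fc mice 6 to 9 and all treated mice), Ugt2a3 (0.25, adjusted p = 0.0346), Sult1d1 (0.30, adjusted p = 0.0313), Ugt1a1 (0.24, adjusted p = 0.0491), Gstm4 (-0.37, adjusted p = 0.0472) and, in addition, Sult5a1 (0.57, adjusted p = 0.0373) were called, among 942 of all genes. Gstt2 (0.27), Ugt2b34 (0.15), Gsta3 (0.17), Ugt2b1 (0.14), Gstt3 (0.36), Sult1a1 (0.34) and Gstm7 (-0.15) kept their sign and were not called, with adjusted p from 0.124 to 0.305.

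**Figure D2:**
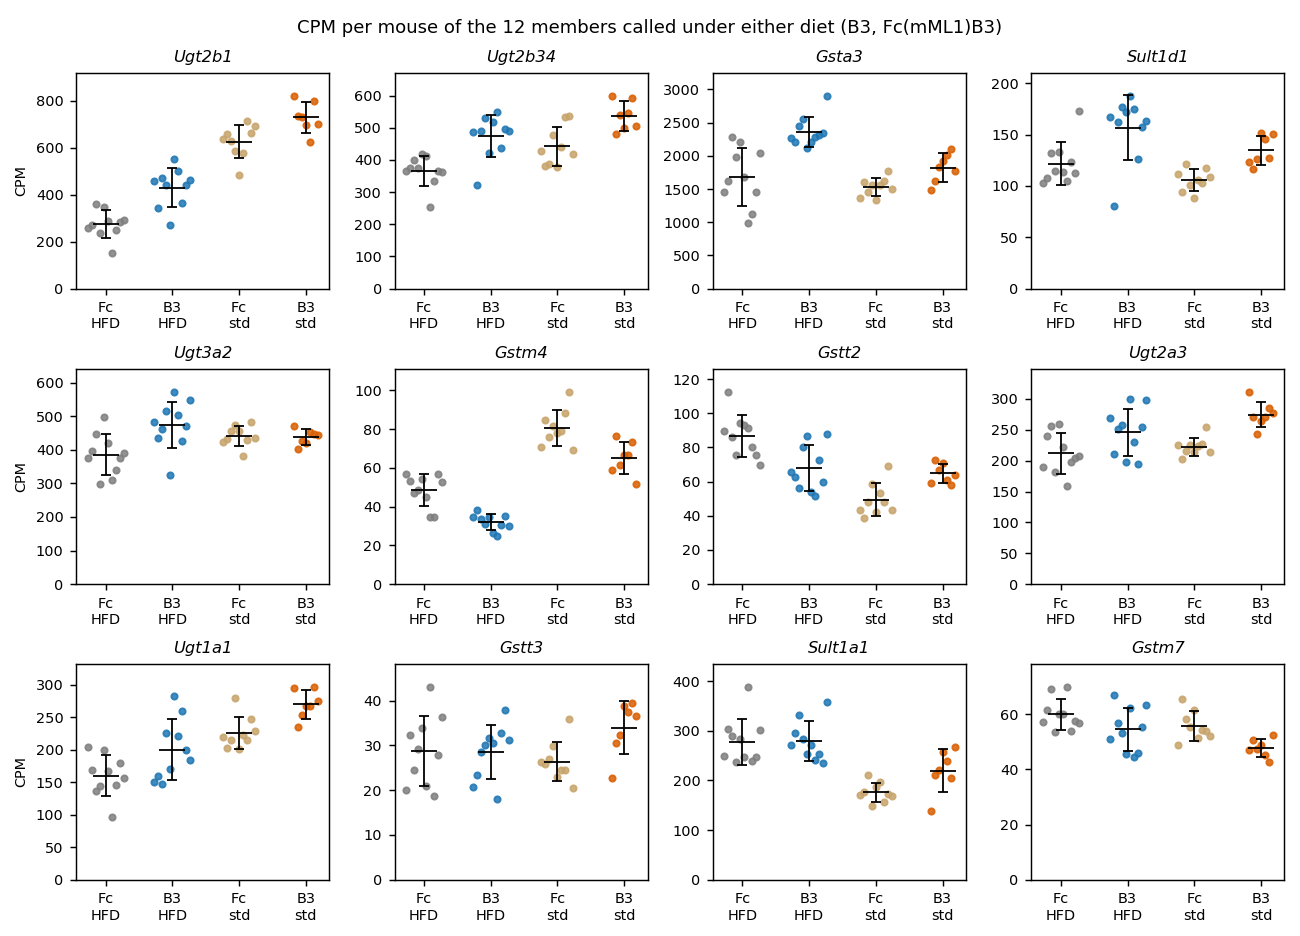
CPM of each mouse (points) with the mean ± SD (black) for the 12 members called under either diet, where B3 stands for Fc(mML1)B3 and std for the standard diet. Ugt2b1 and Gsta3 are higher and Gstm4 is lower with Fc(mML1)B3 under both diets, and Gstt2 is lower under the HFD and higher under the standard diet.

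Permutation tests of the mean log2 CPM gave p = 0.00014 to 0.0197 for the 7 members called under the HFD (2-sided, 100000 resamples) and p = 0.000175 to 0.0281 for the 11 under the standard diet (exact, 11440 groupings). These members were chosen by the fit on the same mice, so the tests are no separate evidence.

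Gstt2 was the 1 member called by edgeR for a difference in response between the diets. With limma-voom Gstm4, Sult1c2, Ugt2b1 and Ugt3a2 were called too, and with the replicate block Sult1c2. It had 38.7 to 69.3 CPM (median 47.9) with Fc and 58.2 to 72.8 CPM (median 64) with Fc(mML1)B3 under the standard diet, a log2 fold change of 0.38 ± 0.10 (SE, adjusted p = 0.00898), with all 7 treated mice above the Fc median. The standard diet effect minus the HFD effect was 0.75 ± 0.15 (SE, adjusted p = 0.000763). It held in each of 36 fits without 1 mouse (0.70 to 0.81). Of 44 members tested for such a difference, 1 was called (2.27%) against 9.06% of 14105 genes (4.66% higher and 4.40% lower under the standard diet), and 7 had an unadjusted p below 0.05, against 21.0% of all genes.

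**Figure D3:**
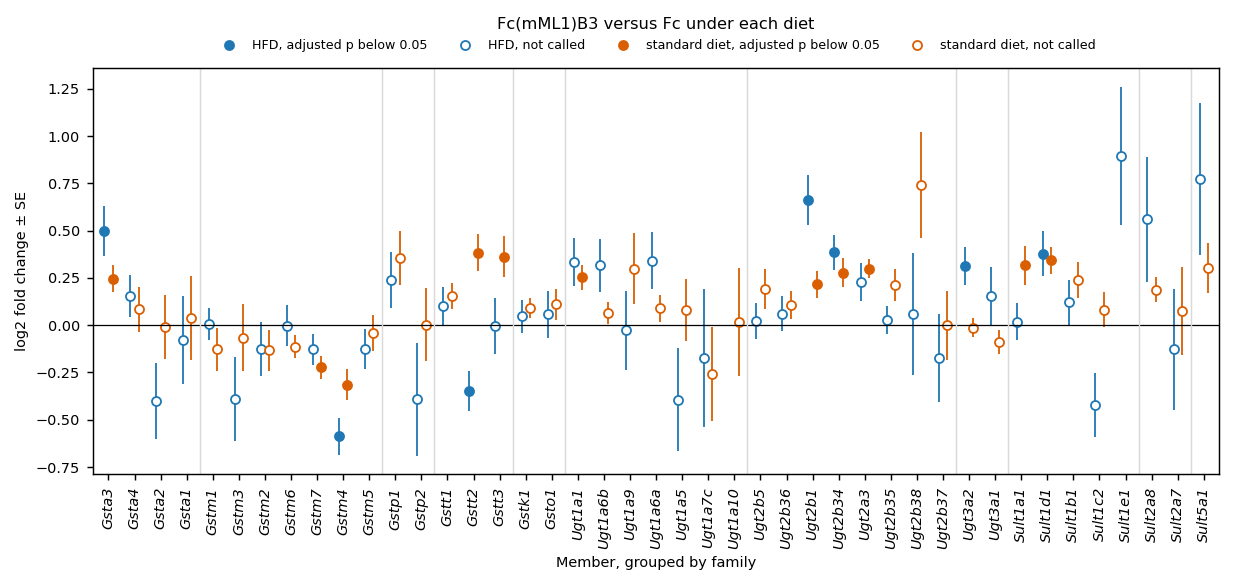
The log2 fold change of Fc(mML1)B3 against Fc (± SE) for each member tested, under the HFD (blue) and the standard diet (orange), with filled points for an adjusted p below 0.05. Gstt2 is the 1 member with filled points on opposite sides of 0.

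Between the experiments, most Ugt genes were higher and most Sult1 genes lower in Fc mice on the standard diet. In the Fc groups, 26 of 44 members were called, 59.1% (18 higher and 8 lower), against 47.9% of all genes (23.3% higher and 24.6% lower), and 28 had an unadjusted p below 0.05, against 54.2%. All 13 of the Ugt genes called were higher, of 17 tested, with 7 of 8 in the Ugt2 family. In the Sult1 family 4 of 5 were lower, among them Sult1e1, which did not pass the filter in the fit of the standard diet groups alone. Gst genes split, with 4 higher and 4 lower. In the Fc(mML1)B3 groups, 21 of 44 were called, 47.7% (13 higher and 8 lower), against 38.5% of all genes (20.7% higher and 17.9% lower), and 24 had an unadjusted p below 0.05, against 47.2%. Without HFD mice 7 and 8, the Fc comparison called 18 members higher and 11 lower, beside 3267 of all genes higher and 2891 lower (3288 and 3471 with these mice). With upper-quartile scaling the member counts were 13 higher and 11 lower in Fc, where Gsta2, Gstp1, Ugt2b34, Ugt2b36 and Ugt3a2 were not called, and 13 higher and 12 lower in Fc(mML1)B3, beside 2523 of all genes higher and 4795 lower in Fc and 2208 and 3799 in Fc(mML1)B3. Both comparisons use the libraries already compared within each diet and are between experiments that differed in more than diet.

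Ugt2b1 had the widest gap among the abundant members in Fc, with 153 to 362 CPM in the Fc HFD group and 482 to 712 CPM in the Fc standard diet group, which did not overlap. Its log2 difference was 1.19 ± 0.11 (SE, adjusted p = 1.14e-10) in Fc and 0.76 ± 0.12 (SE, adjusted p = 3.77e-06) in Fc(mML1)B3.
Gstm4 was higher by 0.74 ± 0.09 in Fc (SE, adjusted p = 2.74e-08) and by 1.03 ± 0.10 in Fc(mML1)B3 (SE, adjusted p = 1.6e-10), and its Fc groups did not overlap either.
Ugt2b35 (0.55 and 0.75), Gstm1 (0.60 and 0.49) and Ugt2b5 (0.49 and 0.67) were higher in both proteins (in Fc and Fc(mML1)B3, all with an adjusted p of 0.000214 or less). Ugt2b38 was the least abundant of those named, with 0.625 to 4.96 CPM in the Fc HFD group and 4.71 to 10.7 CPM in the Fc standard diet group, and with log2 differences of 1.71 ± 0.31 and 2.4 ± 0.32 (SE, adjusted p = 2.59e-05 and 2.56e-07). Treated standard diet mice 1 and 2 had 30.8 and 24.1 CPM.

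Among members lower under the standard diet, Sult1a1 had 238 to 387 CPM in the Fc HFD group and 148 to 210 CPM in the Fc standard diet group, without overlap, and log2 differences of -0.66 ± 0.10 in Fc (SE, adjusted p = 1.33e-06) and -0.35 ± 0.11 in Fc(mML1)B3 (adjusted p = 0.00966). Gstm5 was lower by -0.60 and -0.50 and Gstk1 by -0.40 and -0.34 (adjusted p of 0.000508 or less). Gstt2 was lower in Fc by -0.81 ± 0.10 (SE, adjusted p = 6.84e-08) and at -0.06 ± 0.11 in Fc(mML1)B3 (adjusted p = 0.685). Gsta3 was at -0.14 ± 0.11 in Fc (adjusted p = 0.299) and -0.38 ± 0.12 in Fc(mML1)B3 (adjusted p = 0.0104). In Fc without HFD mice 7 and 8, Gsta3 was at -0.26 and called (adjusted p = 0.0214).
Sult1e1, the estrogen sulfotransferase, had the largest drop in log2 terms, -2.09 ± 0.42 in Fc and -2.49 ± 0.44 in Fc(mML1)B3 (SE, adjusted p = 0.00011 and 2.3e-05). It rests on few reads, with 0.373 to 2.397 CPM in the Fc HFD group and 0.194 to 0.918 CPM in the Fc standard diet group. Sult1e1 was below the filter in the fit of the standard diet groups alone. It entered the fit of 36 libraries with the HFD groups, where it was higher, so this filter favours such a drop.

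**Figure D4:**
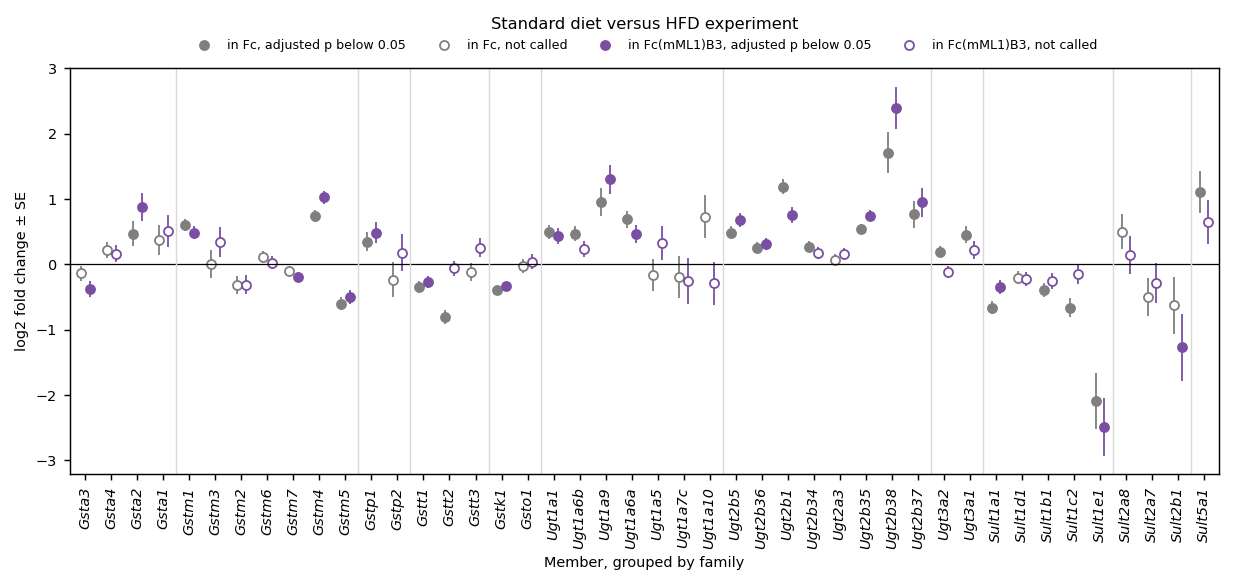
The log2 difference between the standard diet and the HFD experiment (± SE) for each member tested, in Fc (grey) and in Fc(mML1)B3 (violet), with filled points for an adjusted p below 0.05. The Ugt2 genes lie above 0 and the Sult1 genes below it.

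Spread between mice was itself uneven. Sult2a8 had 36.6 and 113 CPM in Fc HFD mice 7 and 8 and 384 to 754 CPM in the other 8 Fc HFD mice. Treated HFD mice had 414 to 899 CPM (median 741) and in the standard diet groups 541 to 881 CPM. The HFD comparison gave 0.56 ± 0.33 (SE, adjusted p = 0.262) with these mice and 0.29 without them (adjusted p = 0.272). Ugt1a5 was at 6.06 and 5.54 CPM in the same mice against 12.9 to 46.01 CPM in the other Fc HFD mice, and Gsta2 at 82.6 and 61.8 CPM against 26.5 to 46.2 CPM. Cyp4a12a, a male-predominant P450, was at 5.75 and 47.2 CPM in them and at 65 to 127 CPM in the rest of the group. Gstm7, Ugt2b35 and Gstm1 varied little, with CVs of 9.38%, 10.4% and 11.1% in the Fc HFD group.

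**Figure D5:**
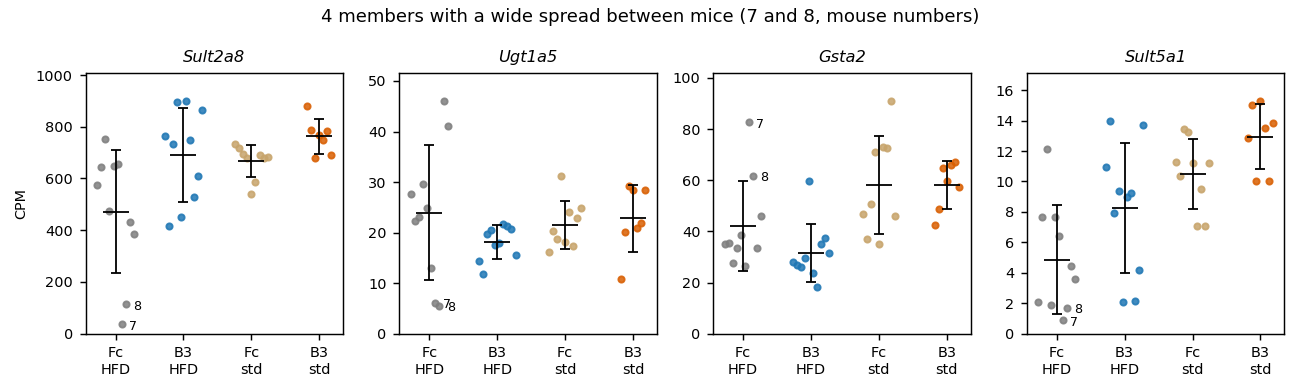
CPM of each mouse (points) with the mean ± SD (black) for Sult2a8, Ugt1a5, Gsta2 and Sult5a1, where B3 stands for Fc(mML1)B3, std for the standard diet, and 7 and 8 for Fc mice 7 and 8 of the HFD experiment. Sult2a8 is at 36.6 and 113 CPM in these 2 mice, below every other mouse.

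Genes that supply or turn over the cosubstrates and the other lists are read against the share of all genes called. This was 14.8% under the HFD (8.14% higher) and 16.1% under the standard diet (8.56% higher). Of 11 genes of glutathione supply and turnover, 2 rose under the HFD on the log2 scale. These were Gclc, the rate-limiting step of glutathione synthesis (0.54), and Oplah (0.22). With standard diet, 2 of 10 rose (Oplah and Chac2) and 2 fell (Cbs, -0.56, and Gclc, -0.45), and the Gclc responses differed between the diets (-0.98 ± 0.20, SE, adjusted p = 0.00077). Of 4 genes of UDP-glucuronic acid supply and glucuronide turnover, 1 fell under the HFD (Ugdh, which makes UDP-glucuronic acid, -0.46). With standard diet Ugdh was at 0.12 (adjusted p = 0.465). Of 6 genes of PAPS and sulfate supply and turnover, 1 rose under the HFD (Bpnt1, 0.41). With standard diet 1 rose (Papss2, a PAPS synthase, 0.39) and 1 fell (Papss1, -0.30).

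Of 22 other conjugating enzymes, 4 rose under the HFD (Nat8, Tpst2, Tpst1 and Baat) and 8 under the standard diet (Nat8, Inmt, Gnmt, Hnmt, Glyat, Ephx2, Nnmt and Slc27a5). Nat8, which acetylates the cysteine conjugates that follow glutathione conjugation, was among the clearest of these, at 0.80 ± 0.16 under the HFD (SE, adjusted p = 0.00181) and 1.02 ± 0.10 under the standard diet (SE, adjusted p = 1.18e-06). Among 11 genes of conjugate export, Abcg2 rose (0.56) and Abcb1a fell (-0.66) under the HFD, and with standard diet Slco2b1, Slco1a4 and Abcb1a rose and Abcb11, the bile salt pump, fell (-0.51). Between the experiments, Abcc2, which carries glucuronides and glutathione conjugates into bile, was higher under the standard diet by 1.25 ± 0.09 in Fc (SE, adjusted p = 1.19e-13).

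Of 19 regulators of conjugation tested, those that rose under the HFD included Arntl, Hnf4a and Foxa2, and 3 fell (Dbp, Nr1d1 and Tef). In the standard diet experiment 5 rose (Nr1h4 or FXR, Nr1i3 or CAR, Hlf, Arnt and Tef) and 2 fell (Nr1d1 and Arntl). Of 12 receptor and NRF2 target genes tested under the HFD, 2 fell (Srxn1, -0.54, and Nqo1, -0.37), and with standard diet 3 of 13 rose (Cyp2b10, Cyp1a2 and Txnrd1). Of 10 genes higher in male liver, 2 rose under the HFD (Elovl3 and Cyp7b1), and with standard diet Cyp2d9 rose and Elovl3 fell. Of the genes higher in female liver, 4 could be tested under the HFD and none passed, with a median log2 fold change of -0.39. Among them Cyp17a1 was at -1.47 (adjusted p = 0.0622) and the member Sult1e1 at 0.90 (adjusted p = 0.1015). Under the standard diet 3 could be tested, and Cyp17a1 rose (0.66). Between the experiments in Fc, where 47.9% of all genes were called, 9 of the 10 genes higher in male liver, were higher under the standard diet. The member Gstp1 was among them at 0.35 (adjusted p = 0.0487), a call lost in 23 of 36 fits without 1 mouse, with DESeq2 and without a filter. In the same comparison, 5 of 7 genes higher in female liver, the member Sult1e1 among them, were lower. Only 4 genes of that list passed the filter in the HFD fit and 3 in the standard diet fit, Sult1e1 in the HFD fit only. The 5 may thus hold genes that passed the filter through the group where they were higher. In Fc(mML1)B3, where 38.5% of all genes were called (20.7% higher and 17.9% lower), 4 of the 10 were higher and Elovl3 was lower, and 2 of the 7 (Sult1e1 and Cyp2b13) were lower.

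Markers of other cell types gave few calls between the proteins. The lists held 5 cholangiocyte, 6 stellate cell and fibroblast, 5 macrophage, 4 endothelial, 3 lymphocyte and, past the filter, 2 neutrophil and 2 enterocyte and pancreas markers. Under the HFD, S100a8 and S100a9 of the neutrophil list were called, both lower, with a summed level of that list of 3.86 to 52.1 CPM with Fc and 3.31 to 9.35 CPM with Fc(mML1)B3. The highest Fc values were those of mice 7 and 8. In the other 8 Fc mice S100a8 was at 1.6 to 5.95 CPM, against 1.54 to 3.62 CPM with Fc(mML1)B3. Without mice 7 and 8 neither gene was called (-0.52 for S100a8, adjusted p = 0.125, and -0.25 for S100a9, adjusted p = 0.5). In the standard diet experiment, the neutrophil list reached 53.1 CPM with Fc (group median 7.26) and 13.3 CPM with Fc(mML1)B3 (group median 8.46). With standard diet, Sox9 of the cholangiocyte list and Pdgfrb and Des of the stellate cell and fibroblast list fell. No other marker outside the hepatocyte list passed under either diet. Hnf4a rose under the HFD and Cps1 under the standard diet among 7 hepatocyte markers. Between the experiments, where 24.6% of all genes were lower in Fc and 17.9% in Fc(mML1)B3, 4 of 6 stellate cell and fibroblast markers were lower under the standard diet in Fc, with a summed level of 205 to 400 CPM under the HFD and 171 to 259 CPM in the standard diet experiment. In the same comparison 3 of 3 lymphocyte markers, 2 of 5 cholangiocyte markers (Epcam and Spp1), 2 of 5 macrophage markers (Cd68 and Trem2) and Fabp2 of the enterocyte and pancreas list were lower, and the hepatocyte markers Cps1 and Hnf4a were higher. In Fc(mML1)B3, 3 of 6 stellate cell and fibroblast markers, Sox9 and Krt19, Cd68 and Trem2, Cd3e and Fabp2 were lower, and Cd79a of the lymphocyte list and Cps1 were higher. Prss1, the pancreas marker, was at 0 in every library. The part of these cells in the member results was not tested.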

How the data were processed

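Livers of 36 mice, 1 RNA library each, formed 4 groups by the sample labels. The values are counts per gene, and the authors made them before deposit with fastp, Bowtie2 2.4.5 for removal of ribosomal RNA, STAR 2.7.10a on mm10 and featureCounts (Subread 2.0.3), as the study's methods and the submitters' notes give it. Both ends of a pair had to align, each end was counted, strand was ignored and reads with several alignments were left out, which lowers the counts of near-identical paralogs.

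From the deposited counts, Fc(mML1)B3 was compared with Fc within each diet, and the diets with each other and for a difference in response in a fit of all 36 libraries, by edgeR's quasi-likelihood test (edgeR 4.0.16, R 4.3.3) with TMM scaling, filterByExpr and Benjamini-Hochberg adjustment over all genes tested. Standard errors were taken from the F statistic of each gene. CPM are TMM-scaled over 36 libraries. Libraries held 14949035 to 28466853 counts, and no pair of 147 within groups was a duplicate (chi-square per degree of freedom at least 6.305). Libraries shared no animal.

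Members and lists were chosen with earlier results of these data known. Named are the members called between the proteins or between the diets' responses (up to 10 each way), the 5 with the smallest p each way between the diets, the highest per kb in each family, those below the filter by name only, and members of the other lists where a list is reported. Ugt1a5, Gsta2, Ugt2b36 and the other genes of Fc HFD mice 7 and 8 were chosen after their values were seen. A regulator and 1 motif are not reported here. Protein identity was replaced by shared 100-base windows of GENCODE M21 transcripts.

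Alternatives were DESeq2 1.42.0, limma-voom (limma 3.58.1), upper-quartile scaling, other filters, a replicate block, S number runs, all libraries in 1 fit, and each library left out in turn. The fit without Fc HFD mice 7 and 8 was added after seeing the data. On simulated data with 200 genes changed by a fold of 2, the test recovered 100% under the HFD (13299 genes), 100% under the standard diet (13570 genes) and 94.5% for the difference between diets (14105 genes), with 6.1%, 5.66% and 5.5% false calls. The changed genes were drawn from those with many reads, and every gene had the same spread between libraries. No member called between the proteins reached a fold of 2, so these rates do not give the power for such members.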

Additional observations from a re-analysis of the deposited data

Results flagged for a closer look

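In 92 sets of mice (23 named members in 4 groups), 11 held a mouse whose gap to its neighbour was large against the range of its group on the log2 scale, where chance gives about 1 in 20. In Fc HFD mouse 7, Ugt2b1 (153.2 CPM, next 234.8), Ugt2b34 (253.9 CPM, next 335.5) and Ugt2b5 (462.1 CPM, next 648.5) were the lowest of the group, and Sult1a1 (387.2 CPM, next 303.1) was the highest. Fc HFD mouse 10 was the highest for Sult1d1 (173.4 CPM). In the Fc(mML1)B3 HFD group, mouse 2 was the lowest for Sult1d1 (80.27 CPM) and Ugt2b34 (323.4 CPM) and mouse 5 for Ugt3a2 (325.6 CPM). In the Fc(mML1)B3 standard diet group, mouse 1 was the lowest for Gstt1 (167.3 CPM) and Sult1a1 (137.7 CPM), and mouse 5 was the highest for Sult1e1 (1.51 CPM, next 0.4551).

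By the test of the difference itself, responses to Fc(mML1)B3 differed between the diets for Gstt2 (0.747 on the log2 scale, standard diet minus HFD). All 13 clock genes tested were called too, against 9.06% of all genes. The clock list was chosen because earlier results of these data showed it to move, so its count is no separate evidence.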

How the results depend on the processing

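No called member changed sign in any alternative run. Calls of members came to 8 higher under the HFD in the fit of all 36 libraries, 3 with the replicate block and 3 without Fc HFD mice 7 and 8, and to 1 higher and 1 lower with treated mice 1 to 4 alone and 5 higher and 1 lower with treated mice 5 to 10 alone, where Gsta3, Ugt3a2 and Gstt2 were not called and Ugt1a1 and Ugt1a10 were, among 1703 of all genes. Under the standard diet they came to 2 higher and 0 lower in the fit of all libraries and to 4 higher and 1 lower in the run of S numbers with both proteins. For the difference between diets, 3 higher and 2 lower were called with limma-voom, 2 higher with the replicate block and 2 higher without Fc HFD mice 7 and 8. All genes called under the HFD numbered 3039 with limma-voom, 3133 in the fit of all libraries, 705 with treated mice 1 to 4 and 1294 with the block, against 1972. Under the standard diet they numbered 785, 942 in the S number run and 1302 with the block, against 2186, and for the difference between diets 2026 with limma-voom and 794 with the block, against 1278. Leaving out 1 mouse gave 3 to 5 members higher and 1 to 4 lower under the HFD, 5 to 9 higher under the standard diet, 1 to 2 higher and 0 to 2 lower for the difference, and 5 to 9 lower between the diets in Fc(mML1)B3. The cause of these changes was not tested. The S number runs held fewer mice, which cannot be told apart from the run itself.

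Upper-quartile scaling moved the split of calls to 865 higher and 1075 lower under the HFD (1083 and 889 with TMM), 2523 and 4795 between the diets in Fc (3288 and 3471) and 2208 and 3799 in Fc(mML1)B3 (2914 and 2520), so the larger side changed under the HFD and in Fc(mML1)B3. It also changed, by a smaller share, in other settings, among them upper-quartile scaling under the standard diet (1061 and 1128, against 1162 and 1024), DESeq2 for the difference between diets (632 and 794, against 657 and 621) and in Fc(mML1)B3 (2796 and 2894), and the fit of all libraries under the HFD (1542 and 1591). Shared replicate numbers did not pair the mice (correlations of -0.62 to 0.259 over 10 pairs under the HFD and -0.156 to 0.001 over 7 under the standard diet). With the replicate block, Gstt2, Sult1d1 and Ugt3a2 under the HFD and Sult1a1 under the standard diet were not called. Depth limits the low members, with a median of 33.5 reads for Sult1e1 in the Fc HFD group.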
